A study of Homo sapiens with 12 samples.

Results

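The 10 genes described here are IL6, CXCL1, CXCL2, CXCL3, CCL2, NFKBIA, TNFAIP3, RELB, NFKB2 and BIRC3, genes of the NF-κB response and of inflammatory signalling. They were chosen by name from the 23106 gene symbols counted in each library, with earlier results of these data known. All 10 passed the filter on low counts. RNA was sequenced from RCC4 cells 48 h after reverse transfection with pools of siRNA. RCC4 is a widely used human line derived from a clear cell renal carcinoma and has lost the function of VHL, the protein that targets HIF for destruction. All dishes received 2 nM siRNA in total with the same lipid reagent. This was 2 nM of a non-targeting pool (control siRNA), 1 nM HIF1A siRNA with 1 nM of the non-targeting pool, 1 nM HIF2A siRNA (against EPAS1, which encodes HIF-2α) with 1 nM of the non-targeting pool, or 1 nM each of both HIF pools (the double knockdown). There were 3 replicates per condition, which the study's methods call biological, and 12 libraries in all, all from 1 cell line. The labels name no inflammatory stimulus in any condition, and the paper's methods for the siRNA experiment give no oxygen level.

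NF-κB factors are dimers of REL-family proteins, held inactive by IκB proteins until an IκB kinase complex marks the inhibitor for destruction. In the canonical arm, signals from TNF, interleukin-1 or Toll-like receptors release RELA dimers, whereas in the non-canonical arm the NFKB2 precursor is processed and pairs with RELB. Many targets feed back on the pathway: NFKBIA and TNFAIP3 restrain it, BIRC3 takes part in receptor signalling, and the cytokines and chemokines carry the signal to other cells. HIF-1 and HIF-2, the hypoxia-inducible factors, are stabilised when VHL is lost, and the comparisons below ask how these genes differ when either or both are reduced.

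The κB motif was searched in the 250 bases before the annotated start of each gene, since it is the element that NF-κB dimers bind. It was written as GGG, any 3 bases and TTCC, which reads GGAA, any 3 bases and CCC on the other strand. Windows from RefSeq (GRCh38.p14, a later build than the hg19 used for the counts) were at hand for 8 of the 10 genes, without CCL2 and RELB. The motif was found in 7 of these 8, whereas 5.67% of 35114 windows of the same length held it. The genes were chosen by name as genes of the NF-κB response, so this contrast describes them and is not independent evidence. The 5 windows below belong to IL6, TNFAIP3 and BIRC3, on which the results turn, and to a chemokine and an inhibitor, with the matches in capitals. The window of the subunit gene NFKB2, which held no match, is not printed.

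IL6: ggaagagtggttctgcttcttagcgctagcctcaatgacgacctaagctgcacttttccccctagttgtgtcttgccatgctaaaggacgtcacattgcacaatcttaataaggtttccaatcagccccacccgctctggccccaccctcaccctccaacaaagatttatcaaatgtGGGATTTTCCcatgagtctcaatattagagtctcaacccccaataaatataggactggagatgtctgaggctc
CXCL1: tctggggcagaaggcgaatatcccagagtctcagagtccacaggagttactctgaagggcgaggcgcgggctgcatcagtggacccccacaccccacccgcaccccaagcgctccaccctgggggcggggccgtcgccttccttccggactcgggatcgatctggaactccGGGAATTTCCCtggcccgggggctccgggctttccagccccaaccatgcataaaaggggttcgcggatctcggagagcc
NFKBIA: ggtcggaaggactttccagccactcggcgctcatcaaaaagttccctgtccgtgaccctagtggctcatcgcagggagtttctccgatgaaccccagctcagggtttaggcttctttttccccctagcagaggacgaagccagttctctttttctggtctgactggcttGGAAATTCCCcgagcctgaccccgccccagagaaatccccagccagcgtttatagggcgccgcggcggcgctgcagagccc
TNFAIP3: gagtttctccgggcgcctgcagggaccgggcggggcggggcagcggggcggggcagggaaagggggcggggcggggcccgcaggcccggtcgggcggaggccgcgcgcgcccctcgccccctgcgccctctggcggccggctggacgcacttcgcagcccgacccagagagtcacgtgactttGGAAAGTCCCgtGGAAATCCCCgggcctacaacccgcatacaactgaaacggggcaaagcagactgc
BIRC3: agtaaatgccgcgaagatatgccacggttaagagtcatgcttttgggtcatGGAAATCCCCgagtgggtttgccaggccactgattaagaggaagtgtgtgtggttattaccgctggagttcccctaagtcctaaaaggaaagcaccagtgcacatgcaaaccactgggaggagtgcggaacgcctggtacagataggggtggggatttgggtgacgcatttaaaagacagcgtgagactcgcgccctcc

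The window of IL6 lay at chr7:22726950-22727199 (plus strand), with its match from 73 to 64 bases before the start. In CXCL1 (chr4:73869143-73869392, plus strand) a match on each strand overlapped, from 79 to 69 bases before the start, and CXCL2 and CXCL3 held the same letters at nearly the same distance. In NFKBIA (chr14:35404750-35404999, minus strand) the match lay from 81 to 72 bases before the start. TNFAIP3 (chr6:137867009-137867258, plus strand) was the only gene of the 8 with 2 separate matches, beginning 67 and 55 bases before the start. In BIRC3 (chr11:102317234-102317483, plus strand) the match lay farthest from the start, beginning at 199 bases. NFKB2 held no match. The core letters of the hypoxia response element, ACGTG or GCGTG on either strand, were also searched. ACGTG, present in 18.5% of all windows, was found only in TNFAIP3, where matches on both strands overlapped. GCGTG, present in 32.2% of all windows, was found only in BIRC3. These are matches of letters, and no binding was measured.

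**Figure D1:**
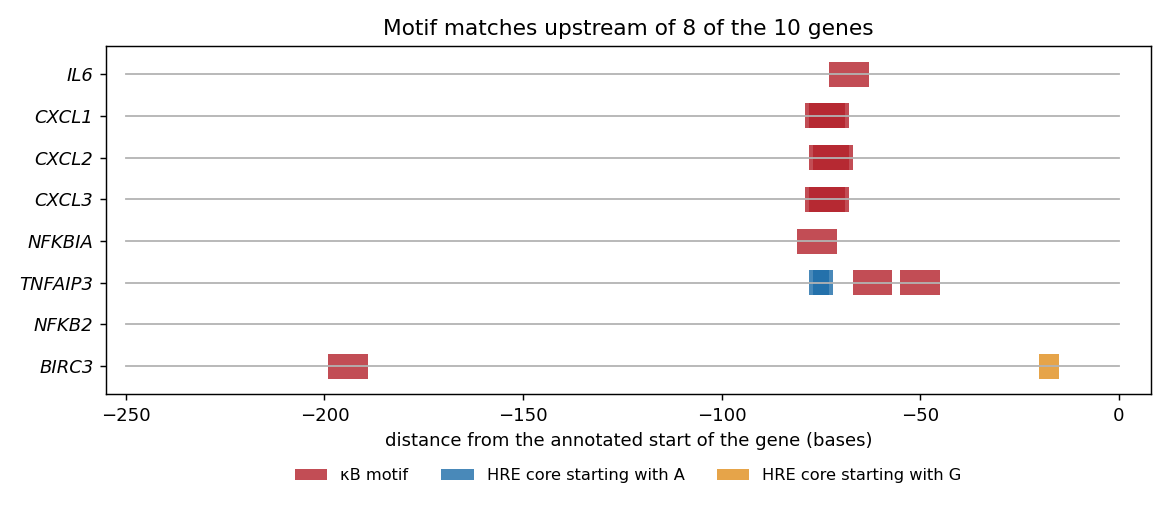
Matches of the κB motif (red) and of the hypoxia response element cores (blue and orange) in the 250 bases before the annotated start of the 8 genes with a window. The horizontal axis is the distance from the start in bases. Red marks lie between 81 and 46 bases before the start in IL6, CXCL1, CXCL2, CXCL3, NFKBIA and TNFAIP3 and at 199 to 190 in BIRC3, and none is in NFKB2.

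Total counts per library lay between 13263168 and 20451433. The targeted genes fell as labelled: HIF1A, at 96.7 ± 33.6 CPM (counts scaled to the library total, SD, n = 3) with control siRNA, was at 18.3 ± 3.62 with HIF1A siRNA and 28.7 ± 4.09 in the double knockdown. EPAS1, at 157 ± 16.9 CPM with control siRNA, was at 10.1 ± 1.53 after HIF2A siRNA and 8.94 ± 2.16 in the double knockdown. ARNT, which encodes HIF-1β and was not targeted, also fell in the double knockdown against control siRNA (log2 fold change -0.46, edgeR adjusted p = 0.021). Its fall passed the threshold in 13 of 21 alternative fits. Kidney epithelial markers summed to between 1898 and 2785 CPM in every library. Single markers did move with the siRNA, beside 10.3% of all genes called in the double knockdown against control siRNA. There CA9 (log2 fold change -4.16) and KRT19 (-0.57) were lower and KRT18 (0.49) was higher, at an edgeR adjusted p under 0.05. The defining lymphoid and leukocyte markers PTPRC, CD3E, CD2 and MS4A1 were at 0 counts in all 12 libraries. The other 4 immune markers on the list (CD14, CD68, CSF1R and LYZ) summed with them to between 36.3 and 68.6 CPM, of which CD68 made up 32.6 to 65.1 CPM. Each of 5 endothelial markers had at most 10 counts in any library. The 6 fibroblast and pericyte markers summed to between 21.6 and 85.7 CPM. Of the 4 tested none was called, with a median log2 fold change of 0.69 for HIF2A siRNA against control siRNA. In bulk RNA, fewer expressing cells and less RNA per cell cannot be told apart.

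Of the 10 genes, TNFAIP3 and BIRC3 fell when both HIF siRNAs were given, and CCL2 was higher with HIF1A siRNA than with HIF2A siRNA. No member passed the test when HIF1A siRNA or HIF2A siRNA alone was compared with control siRNA. Levels are CPM scaled by TMM factors. Adjusted p-values come from edgeR's quasi-likelihood test, blocked on the replicate number, with Benjamini-Hochberg adjustment over all genes tested, and a gene is said to have risen or fallen where this value was under 0.05. Comparisons between the 3 conditions without the double knockdown used 9 libraries and 12830 genes, and those with it used 12 libraries and 13000 genes.

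TNFAIP3 encodes A20, a ubiquitin-editing enzyme that shuts off signalling to NF-κB. It was measured at 147, 90.4 and 150 CPM in control siRNA replicates 1, 2 and 3 and at 136, 97.3 and 109 CPM with HIF1A siRNA. With HIF2A siRNA the values were 114, 77.3 and 88.9 CPM, and in the double knockdown they were 83.4, 54.6 and 90.9 CPM. Replicate 2 was the lowest of the 3 in each condition, and the control and double knockdown ranges overlapped only by the control value of replicate 2 and the double knockdown value of replicate 3. Within pairs the double knockdown stood at 56.7, 60.4 and 60.5% of control siRNA, a log2 fold change of -0.75 (SE 0.13, edgeR adjusted p = 0.0015). Against HIF1A siRNA, where the 2 conditions did not overlap, the log2 fold change was -0.60 (SE 0.13, edgeR adjusted p = 0.033), and against HIF2A siRNA it was -0.30 (SE 0.13, edgeR adjusted p = 0.23). HIF2A siRNA alone gave lower values than control siRNA in all 3 pairs, at 77.4, 85.5 and 59.2% (log2 fold change -0.45, SE 0.13, edgeR adjusted p = 0.61, unadjusted p = 0.0052), and HIF1A siRNA alone gave a log2 fold change of -0.16 (SE 0.13, edgeR adjusted p = 0.90). The interaction, the double knockdown's log2 change minus the sum of those of the single knockdowns, was -0.14 (SE 0.18, edgeR adjusted p = 1.00). Without the replicate block the adjusted p of the double knockdown was 0.23 against control siRNA and 1.00 against HIF1A siRNA. The comparison with HIF1A siRNA also missed the threshold on leaving out replicate 1 (adjusted p = 0.26), replicate 2 (0.083), replicate 3 (0.13), HIF1A siRNA replicate 1 (0.14), 2 (0.22) or 3 (0.054), or double knockdown replicate 1 (0.22) or 2 (0.16).

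BIRC3 encodes cIAP2, a ubiquitin ligase at TNF-family receptors and an inhibitor of cell death. It was measured at 438, 325 and 499 CPM with control siRNA and at 245, 254 and 287 CPM in the double knockdown. Values with HIF1A siRNA were 365, 376 and 344 CPM, and with HIF2A siRNA 341, 348 and 354 CPM, so both single knockdowns lay within the control range and above all 3 double knockdown libraries. The control libraries were the most spread of the 4 conditions, with replicate 3 the highest. The double knockdown stood at 56.0, 78.1 and 57.4% of control siRNA in the 3 pairs (log2 fold change -0.68, SE 0.13, edgeR adjusted p = 0.0029). Against the single knockdowns it was lower in all 3 pairs, with log2 fold changes of -0.47 (SE 0.12, edgeR adjusted p = 0.087) for HIF1A siRNA and -0.41 (SE 0.12, edgeR adjusted p = 0.087) for HIF2A siRNA, which did not pass the threshold. The fall against control siRNA missed the threshold on leaving out replicate 1 (adjusted p = 0.076) or replicate 3 (0.11), and without the block (0.056). With DESeq2 in place of edgeR the adjusted p was 0.023 against HIF1A siRNA and 0.041 against HIF2A siRNA. With edgeR it fell to 0.035 and 0.037, respectively, without control siRNA replicate 2, and to 0.024 against HIF1A siRNA without HIF2A siRNA replicate 2. The interaction was -0.21 (SE 0.18, edgeR adjusted p = 1.00). BIRC3 resembles its neighbour BIRC2 in sequence, and fragments that did not map uniquely had been removed by the authors, so its level may be understated.

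**Figure D2:**
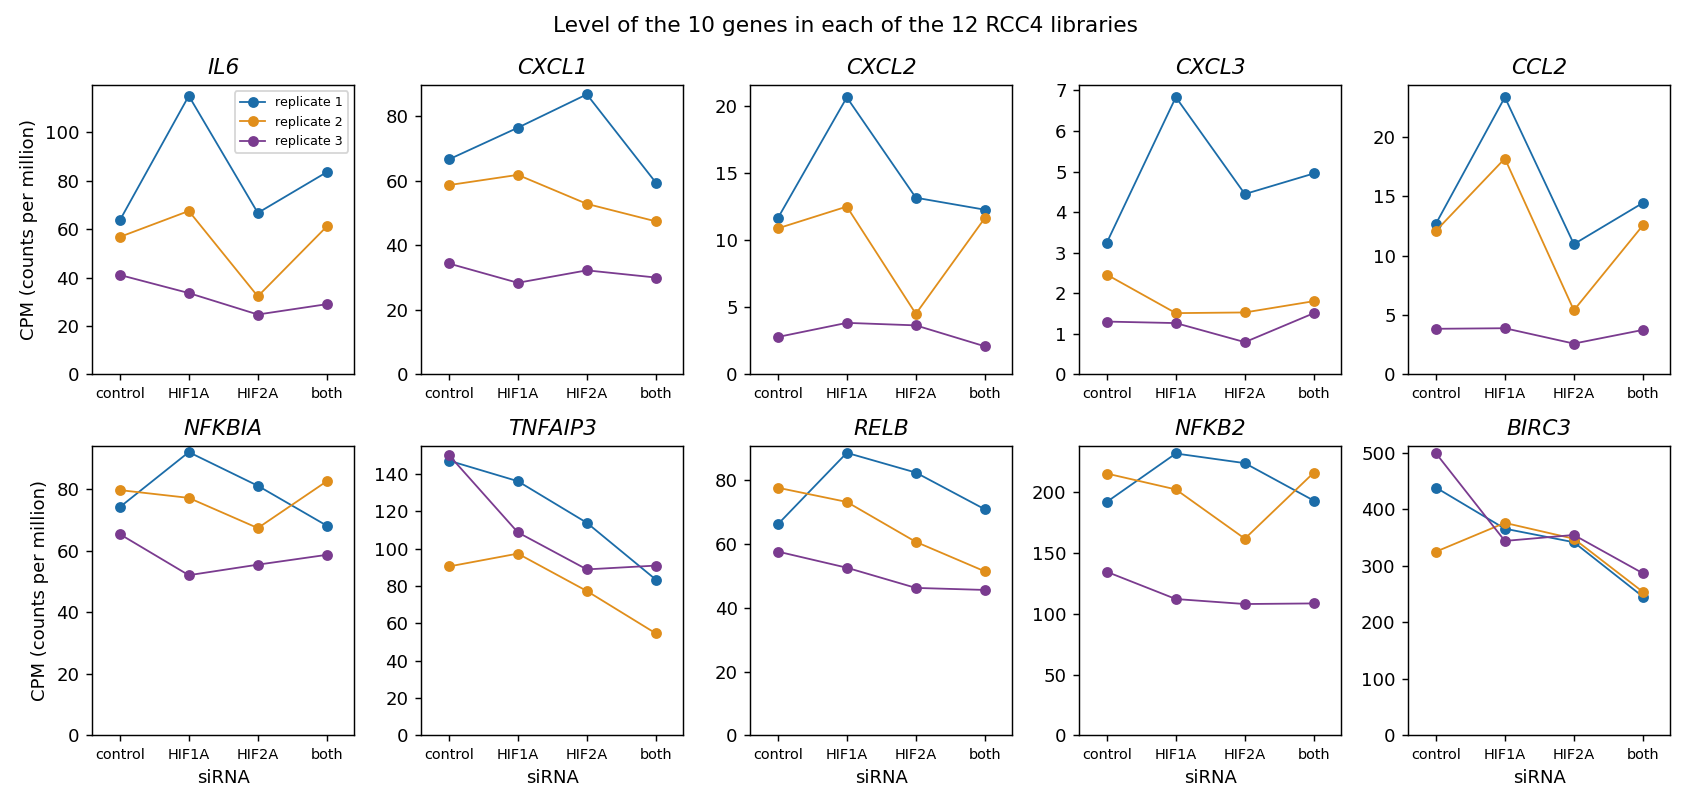
CPM (vertical axes, each from 0) of the 10 genes in the 12 libraries, by siRNA (horizontal axes, "both" is the double knockdown), with lines joining libraries of the same replicate number. The 3 double knockdown values of BIRC3, 245 to 287 CPM, lie below all others, and replicate 3 lies lowest throughout for 8 genes.

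Against control siRNA, then, 2 of the 10 genes were called in the double knockdown, both lower. Over all 13000 genes 10.3% were called in that comparison, 6.42% lower and 3.86% higher. BIRC3 was the only member whose double knockdown and control values did not overlap, beside 8.55% of all genes that were lower without overlap. The median log2 fold change of the 10 genes was -0.09, beside 0.005 over all genes. Against HIF1A siRNA 1 of 10 was called (TNFAIP3, lower), with 1.4% of all genes called and 0.969% called lower. Its values did not overlap there, nor did those of BIRC3, which 4.46% of all genes showed in the lower direction. Against HIF2A siRNA 0 of 10 were called by edgeR, with 4% of all genes called. DESeq2 called 1, BIRC3, and 4 of the 10 had an unadjusted p under 0.05, beside 17.8% of all genes. BIRC3 alone did not overlap in that comparison, beside 5.52% of all genes that were lower without overlap. For the interaction 0 of 10 were called by edgeR, 0 by DESeq2 and 0 at an unadjusted p under 0.05. Over all genes 0% were called for the interaction and 2.45% had an unadjusted p under 0.05.

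CCL2 encodes the chemokine that attracts monocytes through CCR2. Its values in replicates 1, 2 and 3 were 12.7, 12.1 and 3.84 CPM with control siRNA and 23.4, 18.2 and 3.89 CPM with HIF1A siRNA. They were 11.0, 5.41 and 2.60 CPM with HIF2A siRNA and 14.5, 12.6 and 3.75 CPM in the double knockdown. Replicate 3 was the lowest library of each condition, and the ranges overlapped throughout. Within pairs, CCL2 with HIF1A siRNA stood at 213, 336 and 150% of its value with HIF2A siRNA, a log2 difference of 1.16 (SE 0.24, edgeR adjusted p = 0.032). Its log2 fold changes against control siRNA were 0.53 for the HIF1A pool (SE 0.24, edgeR adjusted p = 0.65) and -0.62 for the HIF2A pool (SE 0.25, edgeR adjusted p = 0.87), each in the same direction in all 3 pairs. In the double knockdown it was 0.07 (SE 0.22, edgeR adjusted p = 0.87). Without the replicate block the adjusted p of the difference between the single knockdowns was 1.00. It also missed the threshold without replicate 1 (0.13), replicate 2 (0.19), control siRNA replicate 3 (0.055), HIF1A siRNA replicate 1 (0.31) or 2 (0.31), and HIF2A siRNA replicate 2 (0.14) or 3 (0.067), with log2 differences between 0.89 and 1.38 under all alternatives.

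IL6 encodes interleukin-6, which signals through IL6R and IL6ST to STAT3. Its values were 63.6, 56.8 and 41.1 CPM with control siRNA and 115, 67.5 and 33.6 CPM with HIF1A siRNA. They were 66.7, 32.3 and 24.7 CPM with HIF2A siRNA and 83.6, 61.1 and 29.0 CPM in the double knockdown. Replicate 1 was the highest and replicate 3 the lowest in every condition, and all conditions overlapped. With HIF1A siRNA, IL6 stood at 172, 209 and 136% of its value with HIF2A siRNA in the 3 pairs (log2 difference 0.77, SE 0.19, 95% interval 0.36 to 1.17, edgeR adjusted p = 0.073). It did not pass the threshold in the fit of 9 libraries, but did with all 12 libraries fitted together (adjusted p = 0.045) and with DESeq2 (0.0055). It also did without control siRNA replicate 1 (0.0040) or 2 (0.019) or HIF1A siRNA replicate 3 (0.039). Against control siRNA the log2 fold changes were 0.27 for the HIF1A pool (SE 0.19, edgeR adjusted p = 0.87) and -0.49 for the HIF2A pool (SE 0.19, edgeR adjusted p = 0.83), and in the double knockdown -0.01 (SE 0.18, edgeR adjusted p = 0.97).

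Counted over the members, 1 of 10 was called between HIF1A and HIF2A siRNA (CCL2, higher with HIF1A siRNA), where 1.5% of all genes were called and 0.273% were called higher. At an unadjusted p under 0.05 there were 3 of 10 (CCL2, IL6 and CXCL2), beside 10.2% of all genes. With HIF1A siRNA against control siRNA 0 of 10 were called by edgeR, where 1.17% of all genes were called. DESeq2 called 0, and at an unadjusted p under 0.05 there was 1, CCL2, beside 7.33% of all genes. With HIF2A siRNA against control siRNA 0 of 10 were called by edgeR, where 0.0857% of all genes were called. DESeq2 called 0, and at an unadjusted p under 0.05 there were TNFAIP3, IL6 and CCL2, beside 5.38% of all genes. The comparisons share their control libraries, so they are not independent of each other.

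The 3 CXCL chemokines attract neutrophils through CXCR2 and are close relatives in sequence, so counts of uniquely mapped fragments may understate them. CXCL1 was measured at 66.6, 58.6 and 34.3 CPM with control siRNA, 76.4, 61.8 and 28.4 CPM with HIF1A siRNA, 86.7, 52.8 and 32.2 CPM with HIF2A siRNA and 59.4, 47.4 and 30.0 CPM in the double knockdown. CXCL1 was lower in the double knockdown than in control siRNA in all 3 pairs (log2 fold change -0.22, SE 0.13, 95% interval -0.51 to 0.06, edgeR adjusted p = 0.32). CXCL2 was measured at 11.6, 10.9 and 2.79 CPM with control siRNA, 20.7, 12.5 and 3.84 CPM with HIF1A siRNA, 13.2, 4.52 and 3.66 CPM with HIF2A siRNA and 12.3, 11.7 and 2.09 CPM in the double knockdown. Its log2 difference between HIF1A and HIF2A siRNA was 0.70 (SE 0.29, edgeR adjusted p = 0.41), higher with HIF1A siRNA in all 3 pairs. CXCL3 had the fewest counts of the members, at 0.795 to 6.83 CPM, and its log2 fold changes against control siRNA lay between -0.30 and 0.16 with SEs of 0.38 to 0.41. The receptors CXCR1, CXCR2 and CCR2 had 0 counts in all 12 libraries.

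NFKBIA encodes IκBα, the inhibitor that NF-κB itself induces. Its 12 values lay between 52.0 and 91.9 CPM and overlapped between all conditions, with a log2 fold change of -0.07 in the double knockdown (SE 0.13, 95% interval -0.36 to 0.21, edgeR adjusted p = 0.77). RELB, the partner of the processed NFKB2 protein, was at 66.2, 77.7 and 57.6 CPM with control siRNA and 70.9, 51.4 and 45.6 CPM in the double knockdown (log2 fold change -0.29, SE 0.14, edgeR adjusted p = 0.20). Leaving out control siRNA replicate 1 brought RELB under the threshold (log2 fold change -0.47, adjusted p = 0.024). NFKB2, the precursor of p52, was at 108 to 231 CPM over the 12 libraries, with a log2 fold change of -0.10 in the double knockdown (SE 0.13, 95% interval -0.38 to 0.17, edgeR adjusted p = 0.67). These 3 genes did not pass the test in any comparison of the full set of libraries.

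**Figure D3:**
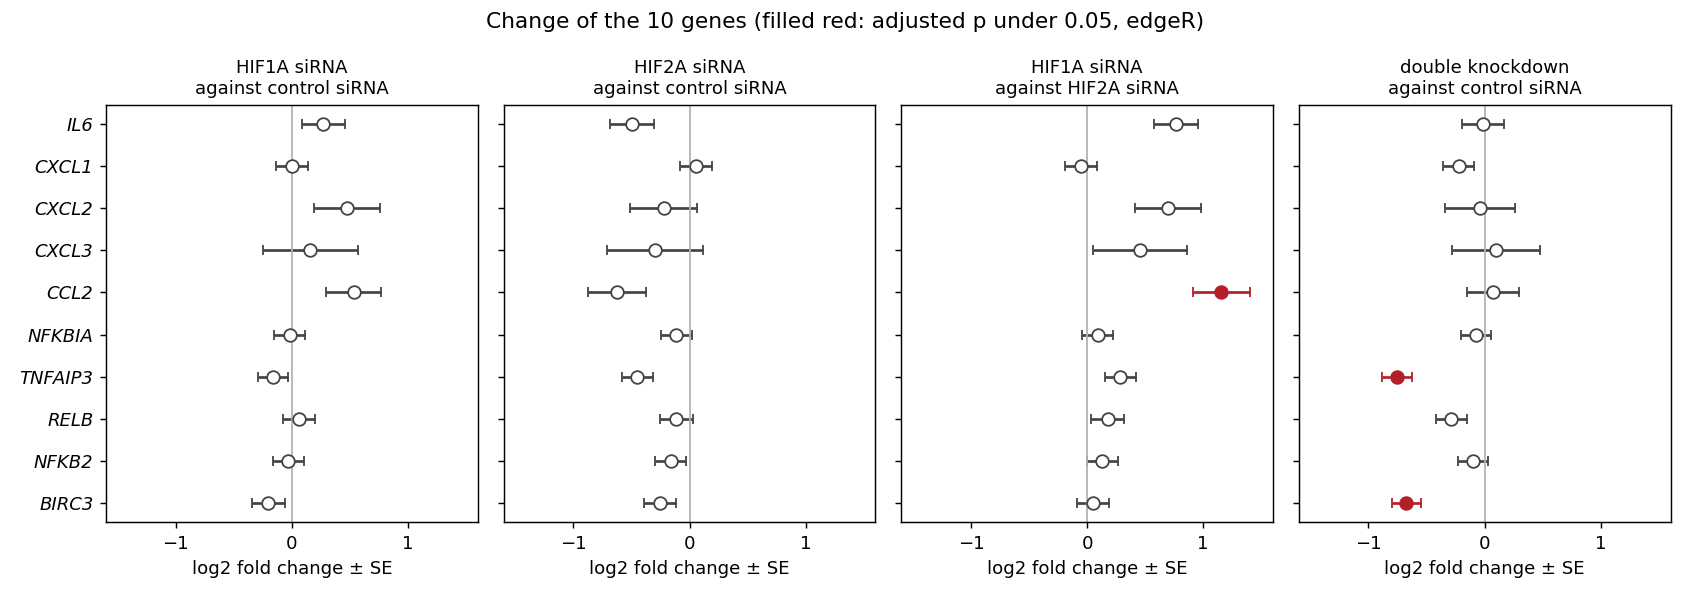
Log2 fold changes of the 10 genes (points) with their SE (bars) in 4 comparisons, from the fits of 9 libraries (first 3 panels) and 12 libraries (last panel). Filled red points have an adjusted p under 0.05. These are CCL2 at 1.16 between HIF1A and HIF2A siRNA and TNFAIP3 at -0.75 and BIRC3 at -0.68 in the double knockdown.

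Most of the spread in 8 of the 10 genes went with the replicate number, not with the siRNA. Replicate 3 was the lowest of the 3 replicates in all 4 conditions for IL6, CXCL1, CXCL2, CXCL3, CCL2, NFKBIA, RELB and NFKB2, a pattern held by 20.5% of all 13000 genes. Averaged over the 4 conditions, CXCL2 was at 14.4, 9.89 and 3.10 CPM in replicates 1, 2 and 3, CCL2 at 15.4, 12.1 and 3.52 CPM and IL6 at 82.3, 54.4 and 32.1 CPM. The replicate number accounted for 64.6 to 90.9% of the variance of log2(CPM + 0.5) in these 8 genes and the siRNA for 2.55 to 18.1%. TNFAIP3 (39.4% replicate, 51.8% siRNA) and BIRC3 (6.43% replicate, 74.5% siRNA) differed from the other 8, and the medians over all genes were 46.4 and 19.2%. Replicate 3 was also the lowest in all 4 conditions for 8 of 12 AP-1 and C/EBP factors, which include immediate early genes, and for 8 of 10 kidney epithelial markers. It was so for 6 of 18 other NF-κB response genes, 1 of 19 kinases and adaptors of the pathway, 0 of 8 receptors and 4 of 15 interferon-stimulated genes. In lists that include members, it was so for 7 of 16 inflammatory ligands, 3 of 6 IκB proteins, 2 of 5 subunit genes and 3 of 12 ubiquitin enzymes. The part of these other genes in the members' pattern was not tested. Over the 12 libraries the Pearson correlation of each of the 8 genes with the mean of the other 9 members was between 0.80 and 0.92, beside 0.24 for TNFAIP3 and 0.02 for BIRC3, as a description of libraries that share replicate numbers and conditions. The genes outside all lists most like the mean of the 10 members were NSFL1C, ANO9, SLC28A3, AIFM2 and LOC100862671, with correlations of 0.93 to 0.96 over the 12 libraries.

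**Figure D4:**
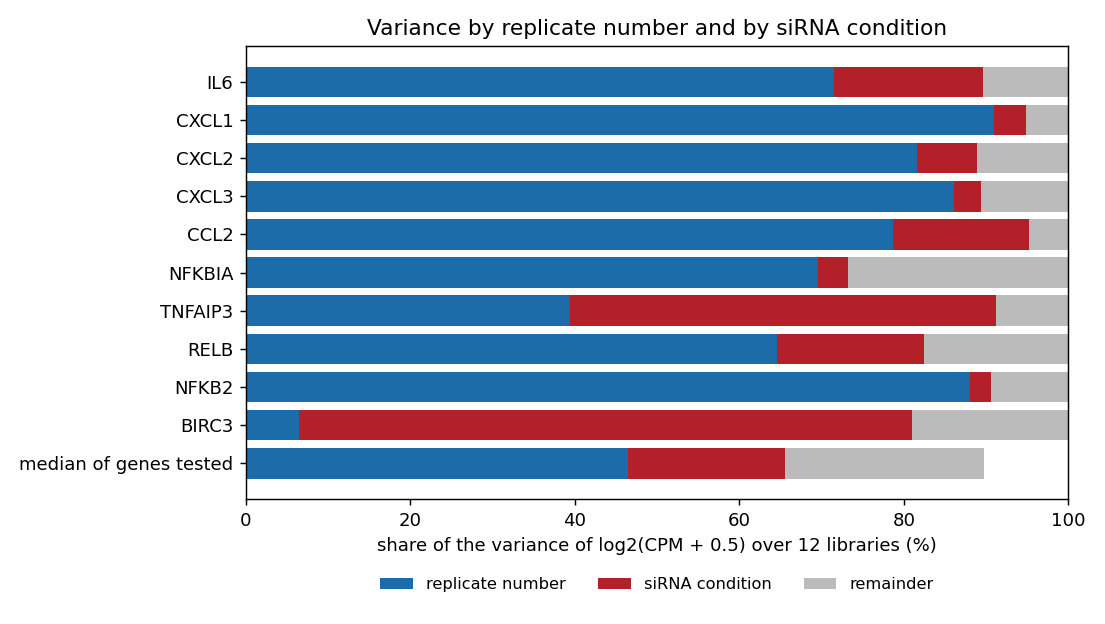
Share of the variance of log2(CPM + 0.5) over the 12 libraries (horizontal axis, %) that goes with the replicate number (blue), the siRNA condition (red) and the remainder (grey), for each of the 10 genes and as separate medians over all genes, which need not add up to the whole. Red is the widest band only in TNFAIP3 (51.8%) and BIRC3 (74.5%).

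Among 87 other listed genes of the NF-κB pathway, 74 had enough counts to be tested. All gene lists used here were chosen with earlier results of these data known. Counts set beside the shares over all genes therefore describe these lists and are not independent evidence. In the double knockdown against control siRNA 20 of these 74 were called, 16 lower and 4 higher, beside 10.3% of all genes called and 6.42% called lower. Their median log2 fold change was -0.18. The count was 3 without the replicate block, 4 without replicate 3, 12 without control siRNA replicate 3, 13 without double knockdown replicate 1 and 13 without replicate 3 of that condition, and 32 without HIF2A siRNA replicate 2. The share of all genes called under each of these settings is not given. Whether the count moved more than that of all genes is therefore not shown. With a single HIF siRNA against control siRNA 0 of 74 were called by edgeR in either comparison. Of those with an unadjusted p under 0.05, 7 were lower for the HIF1A pool and 12 for the HIF2A pool, and 0 were higher in either. Over all genes 4.9 and 2.88%, respectively, were lower at that level.

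Of the 12 ubiquitin enzymes of the pathway 4 fell in the double knockdown and 0 rose: TNFAIP3 and BIRC3, TNIP1, which encodes a partner of A20 (log2 fold change -0.67, SE 0.10, edgeR adjusted p = 0.00083), and RBCK1, a part of the linear ubiquitin ligase (-0.47, SE 0.13, edgeR adjusted p = 0.037). TNIP1 went from 443 ± 49.8 CPM (SD, n = 3) with control siRNA to 281 ± 45.9 in the double knockdown, without overlap. Of the 19 kinases and adaptors 2 fell, TRAF1, an adaptor at TNF receptors that binds cIAP proteins (-1.29, SE 0.19, edgeR adjusted p = 0.00054), and IKBKG, the regulatory subunit of the IκB kinase complex (-0.95, SE 0.26, edgeR adjusted p = 0.031). Of the 6 IκB proteins NFKBIE fell (-0.61, SE 0.15, edgeR adjusted p = 0.018) and NFKBIZ, a nuclear co-regulator that acts on IL6 among other targets, rose (0.52, SE 0.13, edgeR adjusted p = 0.021). None of the 5 subunit genes REL, RELA, RELB, NFKB1 and NFKB2 was called, and 1 of them, RELA, had an unadjusted p under 0.05. Of the 8 receptors tested, TNFRSF11A, the receptor RANK (log2 fold change -1.21), and TLR3, a sensor of double-stranded RNA (-0.85), fell, and TNFRSF1A, the main TNF receptor (0.37), rose. Among the genes of this paragraph the call was kept in fewest alternatives by TNFRSF1A (7 of 21) and RBCK1 (10 of 21).

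Of the 16 inflammatory ligands tested 4 fell in the double knockdown and 0 rose, and none of the 4 was a member. They were the neutrophil chemokine IL8 (now CXCL8), the growth factors CSF1 and CSF2, and the chemokine CCL20. IL8 went from 125 ± 38.0 CPM (SD, n = 3) with control siRNA to 59.3 ± 13.8 in the double knockdown (log2 fold change -1.07, SE 0.14, edgeR adjusted p = 0.00022), lower in all 3 pairs and without overlap. In the same pairs its relative CXCL1 stood at 89.2, 80.9 and 87.3% of control siRNA, where IL8 stood at 55.2, 53.1 and 38.4%. CCL20 had 20 to 33 counts per control library and 0 to 2 in the double knockdown, too few for a fold change to be given. The call of CSF2 was kept in 11 of 21 alternatives. Among 18 other response genes tested 5 fell, namely TNFAIP6 (-0.84, SE 0.11, edgeR adjusted p = 0.00016), MMP9 (-1.41), ICAM1 (-0.55), BCL2A1 (-2.06) and NAMPT (-0.45), and 2 rose, among them VCAM1 (0.72), all on the log2 scale. BCL2A1 had few counts, so the size of its fold change is uncertain. Its means were 3.43 CPM with HIF1A siRNA and 2.10 CPM with HIF2A siRNA, which are not the conditions of this comparison. TNFAIP6, which encodes a hyaluronan-binding protein, was also higher with HIF1A siRNA than with HIF2A siRNA (0.59, SE 0.12, edgeR adjusted p = 0.020), the only gene of the 74 called in that comparison. This call was kept in 10 of 19 alternatives and was lost without the replicate block (adjusted p = 1.00), without replicate 1 (0.052), 2 (0.062) or 3 (0.45), without HIF1A siRNA replicate 1 (0.090), 2 (0.16) or 3 (0.17), and without HIF2A siRNA replicate 1 (0.092) or 3 (0.12).

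**Figure D5:**
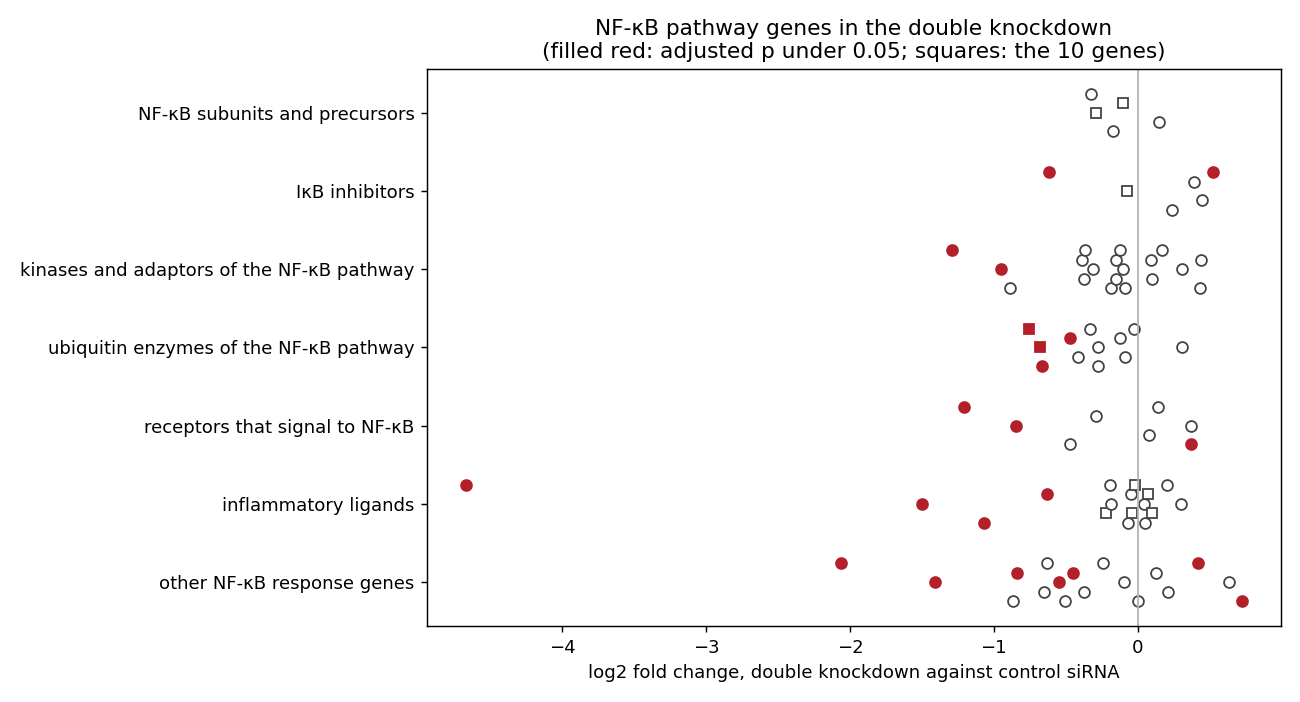
Log2 fold changes in the double knockdown against control siRNA (horizontal axis) of the NF-κB pathway genes tested, 1 row of points per list, with the 10 genes as squares and vertical offsets within a row for legibility only. Filled red marks have an adjusted p under 0.05, and 16 circles and 2 squares lie to the left of 0 and 4 circles to the right. The point farthest left is CCL20, which has 0 to 2 counts in the double knockdown libraries. The row of inflammatory ligands also holds a point drawn for the ligand gene LTA, which is not a value of that gene. LTA was at 0 CPM with either single HIF siRNA and is not among the 16 ligands tested.

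In the remaining comparisons of the double knockdown, 4 of the 74 genes fell against HIF1A siRNA (TNFAIP6, TNFRSF11A, TRAF1 and BCL2A1) and 9 against HIF2A siRNA (TNIP1, CSF1, TLR3, IL8, TRAF1, NAMPT, MMP9, TRADD and CCL20), and 0 rose in either. Over all genes 0.969 and 3.22%, respectively, were called lower. These calls varied in how often they were kept, from 19 of 21 alternatives for TNFAIP6 to 12 of 20 for BCL2A1 against HIF1A siRNA, and from 18 of 21 for TNIP1 to 8 of 21 for TRADD and 2 of 19 for CCL20 against HIF2A siRNA. For the interaction 0 of the 74 were called by edgeR, with 3 lower and 0 higher at an unadjusted p under 0.05.

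Downstream of IL6, the receptor gene IL6R rose in the double knockdown, from 3.42 ± 0.936 CPM (SD, n = 3) to 10.6 ± 2.00, without overlap (log2 fold change 1.63, SE 0.23, edgeR adjusted p = 0.00026). SOCS3, a feedback inhibitor that STAT3 induces, rose as well (0.69, SE 0.20, edgeR adjusted p = 0.045). The shared receptor chain IL6ST (-0.44, SE 0.13, edgeR adjusted p = 0.039) and the oncostatin M receptor OSMR (-0.75, SE 0.12, edgeR adjusted p = 0.0011) fell. The other 5 of the 9 genes on this list were not called. The share of all genes called in that comparison was 10.3%, with 6.42% lower and 3.86% higher. IL6R kept its call in all 21 alternatives and OSMR in 19, whereas SOCS3 kept it in 9 and IL6ST in 10 of 21. The adjusted p reached 0.43 for SOCS3 and 0.81 for IL6ST, both without the replicate block.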

How the data were processed

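The samples, libraries and conditions are those described above. According to the paper's methods and the submitters' processing notes, the authors trimmed adaptors with Trim Galore (version 0.3.3), aligned reads to GRCh37/hg19 with HISAT2 (2.05), used Picard (2.0.1) to drop fragments without a unique position and counted fragments per gene with HTSeq (0.5.4p3). The deposited values are raw counts per gene symbol, without normalization. The library kit marks strand, and whether the counting used it is not given in the sources used here, so counts are uncertain where 2 genes overlap in opposite orientation.

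Differences were assessed by edgeR (4.0.16, in R 4.3.3) through its quasi-likelihood test, after TMM normalization and the package's filter (minimum count 10, minimum total 15), with replicate number as the blocking term and Benjamini-Hochberg adjustment. CPM used the library total times its TMM factor, and 0.5 CPM was added before pair ratios were taken on the log2 scale. The scripts were tested on simulated counts. Total counts were 13263168 to 20451433 per library and TMM factors 0.980 to 1.02. Replicates differed by more than sampling noise, so none was merged, and p-values measure the spread between these replicates of 1 line.

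The replicate numbers pair the libraries according to the study's methods, which paired conditions by biological replicate. Deviations from the condition means correlated across 13000 genes by 0.0991 to 0.813 in 18 pairs of libraries with the same number and by -0.724 to 0.527 in 36 with different numbers.

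Groups came from the sample labels. The 10 members and all gene lists were chosen with earlier results of these data known. From each list the genes named are those called in a comparison, at most 6 with the smallest p, and otherwise the 2 with the smallest p. CXCL1, CXCL2, CXCL3 and receptor genes at 0 counts are named because they are members or their receptors. Promoter windows came from RefSeq (GRCh38.p14). The alternatives were DESeq2 size factors or the DESeq2 test (version 1.42.0), no filter, a minimum of 10 counts in each library, a fit without the replicate block, fits of all 12 or of just the 6 libraries compared, and leaving out each replicate number or library.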

Additional observations from a re-analysis of the deposited data

Results flagged for a closer look

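CCL2 was higher than with control siRNA in all 3 pairs with HIF1A siRNA, although replicate 3 stood at only 101% of its control, and lower in all 3 pairs with HIF2A siRNA. Neither single comparison passed the test (log2 fold change 0.53, edgeR adjusted p = 0.65, and -0.62, edgeR adjusted p = 0.87, respectively). The direct test of the difference gave a log2 value of 1.16 (edgeR adjusted p = 0.032), which passed the threshold in 11 of 19 alternatives and not without the replicate block. Groups of 3 were not examined for single outlying libraries.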

How the results depend on the processing

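Of 1400 values of the 10 genes under the alternatives, 1363 stayed on the same side of the threshold with the same direction for called values, 21 lost a call and 16 gained one. Without the replicate block no member was called in any comparison (0 of 10 between HIF1A and HIF2A siRNA, 0 in the double knockdown against control siRNA and 0 against HIF1A siRNA), and 3 of 74 other pathway genes were called in the double knockdown. Between HIF1A and HIF2A siRNA 2 members (IL6 and CCL2) were called with no filter, with DESeq2, with all 12 libraries or with only 6, and 0 to 2 on leaving out a replicate number or library. In the double knockdown against control siRNA the count on leaving out was 1 to 3, with 1 without replicate 1 or replicate 3. Against HIF1A siRNA it was 2 (TNFAIP3 and BIRC3) with no filter, with DESeq2 or with only 6 libraries, and 0 to 2 on leaving out. Against HIF2A siRNA it was 1 (BIRC3) with no filter or with DESeq2, and 0 to 1 on leaving out. The other pathway genes called in the double knockdown numbered 31 with only 6 libraries and 4 to 32 on leaving out. The shares of all genes called under each of these alternatives are not given here. Whether the counts shifted more than those of all genes is therefore not shown, and the cause of the shifts was not tested.

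The fall of TNFAIP3 in the double knockdown passed the threshold in 20 of 21 alternatives, and that of BIRC3 in 18 of 21. The difference of CCL2 between HIF1A and HIF2A siRNA did so in 11 of 19, and that of IL6 in 7 of 19. CXCL3, with 0.795 to 6.83 CPM, has the widest errors of the 10 genes, so changes of the size seen in TNFAIP3 were not detectable for it at this depth. With 1 line and siRNA pools, effects of the line or of the pools cannot be told apart from those of HIF loss.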

Other observations

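Among AP-1 and C/EBP factors, which often act beside NF-κB at cytokine promoters, 5 of 12 were called in the double knockdown against control siRNA, beside 10.3% of all genes. CEBPD (log2 fold change 1.04, SE 0.21, edgeR adjusted p = 0.0048), FOSB (1.40, SE 0.25, edgeR adjusted p = 0.0024) and FOS (1.45, SE 0.34, edgeR adjusted p = 0.012) rose, and ATF3 (-0.76, SE 0.19, edgeR adjusted p = 0.023) and MAFF (-0.72, SE 0.21, edgeR adjusted p = 0.039) fell. FOS and FOSB overlapped between the conditions. CEBPD kept its call in 18 and FOSB in 19 of 21 alternatives, FOS in 15 of 20, ATF3 in 14 of 21 and MAFF in 11 of 21, and the adjusted p reached 0.90 for FOS without the replicate block. Of 15 interferon-stimulated genes tested 1 fell, DDX58 (edgeR adjusted p = 0.046, kept in 6 of 21 alternatives), beside 6.42% of all genes called lower, and IFNB1 had 0 counts in all 12 libraries. Of 20 tested genes of Module-3, a gene module of intratumor heterogeneity that the study defined in single cells and that holds CCL2 and CXCL2, 4 fell and 2 rose, beside 6.42% and 3.86% of all genes, and neither CCL2 nor CXCL2 was among them.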
